A study of Mus musculus with 8 samples.

Results

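The genes of the complement system were examined in corneal RNA: its components, their receptors and the proteins that restrain them. The 38 genes were chosen by name and looked up by Ensembl identifier and symbol, and all 38 were among the 54532 genes of the table. RNA sequencing had been done on 4 naive corneas of BALB/c mice and 4 of C57BL/6N mice, all male, with no treatment in either strain. BALB/c, which the study calls BALB/cN, is the albino strain with the weak lymphatic vessel response, and C57BL/6N is the pigmented strain with the strong one, and the comparison asked which genes differ between them before any stimulus. The methods give an age for the mice used in phenotyping but none for the sequenced mice by themselves, and whether the 4 corneas of a strain came from separate mice is not given in the sources used here, so p-values measure the spread between these corneas.

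Complement is a cascade of plasma and tissue proteins that marks surfaces for removal. It is started by C1q with its proteases C1r and C1s (classical pathway), by lectins with the proteases MASP1 and MASP2 (lectin pathway), or by slow turnover of C3 with factors B and D and properdin (alternative pathway). The pathways converge on enzymes that cut C3 and C5, the fragments C3a and C5a act on receptors of leukocytes, and C5b with C6 to C9 forms a pore. Host cells are protected by membrane regulators such as Crry (gene Cr1l), CD55 and CD59, and by soluble ones such as C1 inhibitor (Serping1). In the cornea, which has no vessels, local synthesis by stromal, epithelial and immune cells is one source of these proteins.

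Values are rlog values, the regularized log2 expression that DESeq2 gives: a difference of 1 is a doubling, and differences of weakly expressed genes are drawn toward 0. The table holds no counts, so the depth of each cornea is unknown. Of the 38 members, 30 averaged 0 or more over the 8 corneas and entered the test (limma, BALB/c minus C57BL/6N, Benjamini-Hochberg over 25402 genes, called at an adjusted p of 0.01 or less). The corneas were not equal in make-up. The mean of 9 markers of stromal keratocytes was 13.67, 11.60, 13.04 and 13.78 in BALB/c replicates 1 to 4 and 13.75, 13.82, 11.03 and 11.06 in C57BL/6N replicates 1 to 4, so that BALB/c replicate 2 and C57BL/6N replicates 3 and 4 stood low. The mean of 14 macrophage markers was lowest in the same 3 corneas (5.57 to 5.77, against 6.13 to 6.37 in the other five). So was the mean of 5 corneal endothelium markers (9.60 to 9.96, against 10.54 to 10.76). In these bulk samples fewer cells of a type and less RNA per cell cannot be told apart. BALB/c replicates 1 and 4 were high in lens markers (mean 8.15 and 7.36, against 5.09 to 5.82 in the other six corneas) and in pigment cell markers (10.42 and 11.34, against 6.22 to 8.66). Epithelial markers, which check the tissue, were high in every cornea (mean 15.80 to 16.05). The lists of conjunctiva and neutrophil markers separated the strains. The conjunctiva mean was 8.81 to 9.29 in BALB/c and 9.40 to 9.58 in C57BL/6N. Its 6 markers did not overlap between strains, and 4 were called lower in BALB/c (Krt13, Krt4, Krt19 and Muc4). The other 2 were higher in BALB/c without passing. These were Krt8 (0.40, limma adjusted p = 0.0111) and the goblet cell mucin Muc5ac (2.19, limma adjusted p = 0.0225). The neutrophil mean was 3.26 to 3.47 against 3.69 to 3.92, with S100a9 called lower (-1.54) and 4 of the 7 markers at 0 in all corneas. S100a8 (0.02) and Csf3r (0.15) were higher in BALB/c and not called, so that this separation rests on S100a9. The part of these marker lists in the strain differences given next was not tested.

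**Figure D1:**
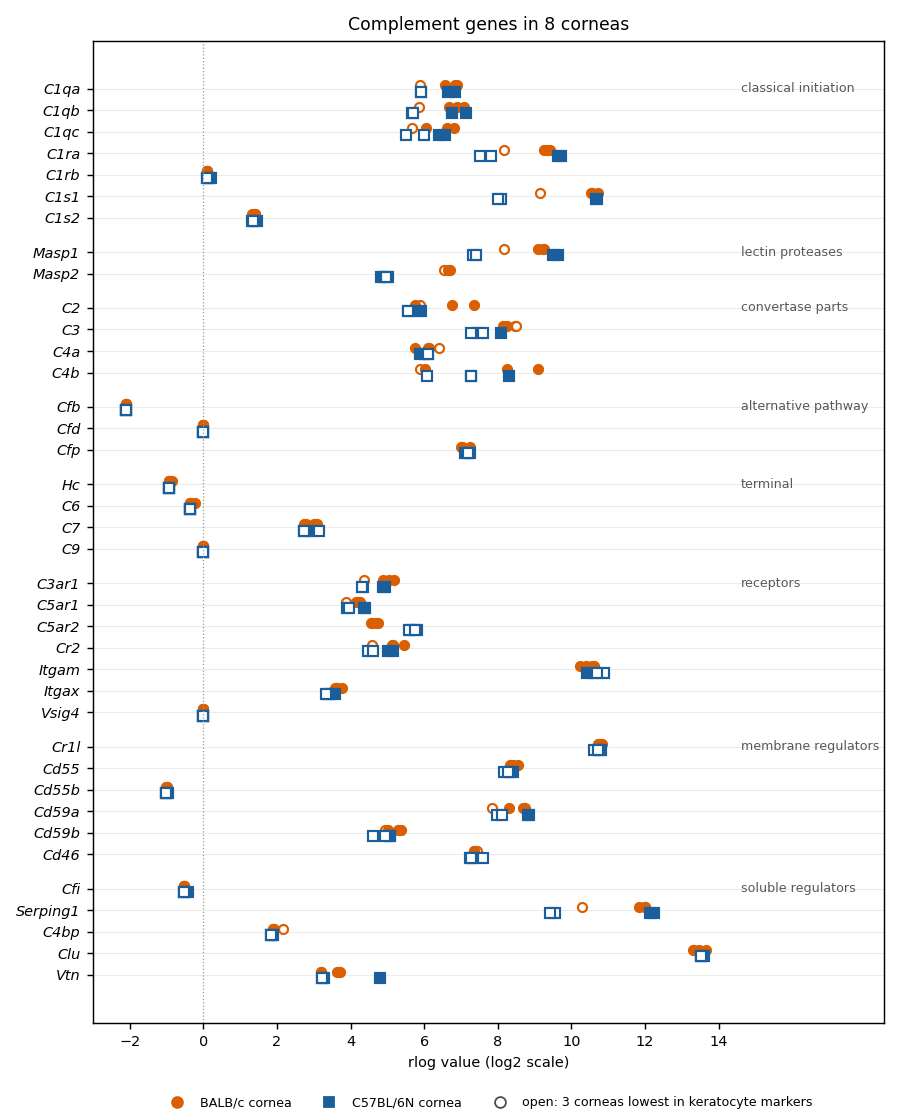
The rlog value (log2 scale, x axis) of each of the 38 complement genes (rows, ordered by role) in each cornea; circles are BALB/c, squares C57BL/6N, and open symbols the 3 corneas lowest in keratocyte markers. Masp2 and C5ar2 separate by strain with narrow groups, while C1ra, C1s1, Masp1 and Serping1 spread by whether the symbol is open.

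Masp2 and C5ar2 were the 2 called members, 1 in each direction. Masp2, the protease that starts the lectin pathway, was higher in BALB/c, and C5ar2, the second receptor for C5a, was lower. The 2 of 30 compare with 1458 of 25402 tested genes called (5.74%), 718 higher (2.83%) and 740 lower in BALB/c (2.91%). The members' median difference was 0.11 and their median absolute difference 0.19, beside 0.01 and 0.09 over all genes tested. Both calls were lost when the limma p-values were recalibrated to an empirical null over all genes. Under it 0 of the 25402 genes passed, and 1690 had an unadjusted p under 0.05. The recalibrated limma adjusted p was 0.21 for Masp2 and 0.31 for C5ar2. The study recalibrated its own DESeq2 p-values by another method, fdrtool, and reported genes that passed an adjusted p of 0.01. The Masp2 and C5ar2 calls held under every other setting run here. The other 28 members did not pass. The 95% interval of the difference lay within 0.5 of 0 for 13 of these, Clu, Cr1l, Cd55, Cd46, Cfp and C5ar1 among them. The 13 also held the weakly expressed C1rb, C1s2, C7 and C4bp, whose differences rlog draws toward 0. For 8 members the interval reached 1 or beyond, so that these corneas do not bound the difference below a doubling for them.

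The sequences 5′ of the start sites of these 2 genes are shown because they carry the called differences. They are the 250 bases before a RefSeq start (for C5ar2 the outer of its 2 listed starts) in the reference assembly GRCm38.p6, which is C57BL/6J sequence, so no BALB/c base is shown. Capitals mark the core of an interferon gamma activated site, TTCNNNGAA, searched on both strands.
Masp2, chr4:148602294-148602543, plus strand: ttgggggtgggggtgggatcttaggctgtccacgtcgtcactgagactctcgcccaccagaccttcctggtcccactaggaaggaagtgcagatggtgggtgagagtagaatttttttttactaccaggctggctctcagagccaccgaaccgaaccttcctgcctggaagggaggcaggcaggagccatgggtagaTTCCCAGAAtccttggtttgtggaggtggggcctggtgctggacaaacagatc
C5ar2, chr7:16244155-16244404, minus strand: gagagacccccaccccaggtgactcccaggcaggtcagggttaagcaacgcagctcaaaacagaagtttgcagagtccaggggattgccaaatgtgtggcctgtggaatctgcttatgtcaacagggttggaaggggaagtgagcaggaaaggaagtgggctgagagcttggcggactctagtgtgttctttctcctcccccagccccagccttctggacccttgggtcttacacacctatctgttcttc
The Masp2 window held 1 such core, whose first base lay 53 bases before the start, and the C5ar2 window held none. Of all 32851 promoters of this length, 7.02% held the core, as did 3 of the 29 members with a promoter in the table (Masp2, C1rb and C7). The core of the interferon-stimulated response element, GAAANNGAA, was in 7.13% of all promoters and in 2 members (C5ar1 and Cd59a), and in neither window above. A match of letters is a description and not a binding site. A comparison list of 16 interferon-stimulated genes was chosen with earlier results of these data known. All 16 were called higher in BALB/c, by 0.70 to 4.23 on the log2 scale (median 2.08). Of all tested genes 2.83% were called higher, and of the 30 complement members only Masp2. A link between interferon and Masp2 was not tested.

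The lectin pathway proteases were Masp1 and Masp2. Masp2 (ENSMUSG00000028979, chr4:148602554-148615499, plus strand, GRCm38) had rlog values of 6.71, 6.55, 6.68 and 6.65 in BALB/c and of 4.84, 4.89, 5.03 and 4.97 in C57BL/6N. Every BALB/c cornea lay above every C57BL/6N cornea, and the gap between the groups was many times the spread within them. The difference was 1.71 ± 0.08 (SE, n = 4 corneas per strain; limma adjusted p = 1.634e-06), a 3.28-fold higher level in BALB/c (95% interval 2.88 to 3.73). It ranked 52nd of all tested genes by p-value. The exact two-sided permutation test gave p = 0.0286, the smallest that 4 against 4 corneas allow. The low-keratocyte corneas held the lowest BALB/c value (6.55) and the highest C57BL/6N values (5.03 and 4.97). The corneas with lens and pigment transcripts did not stand apart in Masp2. Without the low-keratocyte corneas the strain difference was 1.81, and without the lens and pigment corneas 1.68. The gene makes both the protease and a short form without the protease domain, and a value per gene does not part them. Of its exon bases, 54.9% lie opposite exons of Tardbp. Whether the counting used strand is not given in the sources used here, and without it reads over these bases could not be told apart from those of Tardbp, which was much stronger (11.50 to 11.75). Tardbp, an RNA-binding protein gene, differed by -0.07 (limma adjusted p = 0.54). The 6 nearest tested protein-coding neighbors of Masp2, Tardbp among them, were not called, with differences from -0.20 to 0.84.

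Masp1, whose product activates MASP2, had another pattern. Its values were 9.23, 8.18, 9.26 and 9.10 in BALB/c and 9.64, 9.51, 7.32 and 7.40 in C57BL/6N. The 3 lowest were those of the 3 corneas low in keratocyte markers, and the strains overlapped (difference 0.47 ± 0.55, limma adjusted p = 0.65). The difference between the proteases within a cornea, Masp2 minus Masp1, was -2.30 ± 0.45 (SD, n = 4) in BALB/c and -3.53 ± 1.36 in C57BL/6N and did not differ beyond the spread (exact permutation p = 0.286).

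The receptors were C3ar1 for C3a, C5ar1 and C5ar2 for C5a, Cr2 for C3d, and the integrin chains Itgam and Itgax and the macrophage receptor Vsig4 for iC3b. C5ar2 (ENSMUSG00000074361, chr7:16234585-16244154, minus strand) codes for a receptor that binds C5a without coupling to G proteins. Its values were 4.76, 4.58, 4.54 and 4.69 in BALB/c and 5.60, 5.81, 5.58 and 5.76 in C57BL/6N. All BALB/c corneas lay below all C57BL/6N corneas. The level in BALB/c fell by 1.05 ± 0.09 on the log2 scale against C57BL/6N (SE; limma adjusted p = 7.009e-05; exact permutation p = 0.0286), a 2.06-fold difference (95% interval 1.79 to 2.38). Without the low-keratocyte corneas it was -1.04, and without the lens and pigment corneas -1.13.

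C5ar1, the adjacent gene on the same strand and the G protein-coupled receptor for C5a, did not follow. It had 4.16, 3.88, 4.27 and 4.20 in BALB/c and 4.40, 4.38, 3.90 and 3.95 in C57BL/6N, a difference of -0.03 (95% interval -0.34 to 0.29). Within a cornea C5ar2 exceeded C5ar1 by 0.52 ± 0.18 (SD, n = 4) in BALB/c and by 1.53 ± 0.27 in C57BL/6N, and the groups did not overlap (exact permutation p = 0.0286). Adjusted over this pair and the MASP pair, which were both chosen after their values were seen, p was 0.0571. None of the 6 nearest tested protein-coding neighbors of C5ar2 was called (differences from -0.20 to 0.03).

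**Figure D2:**
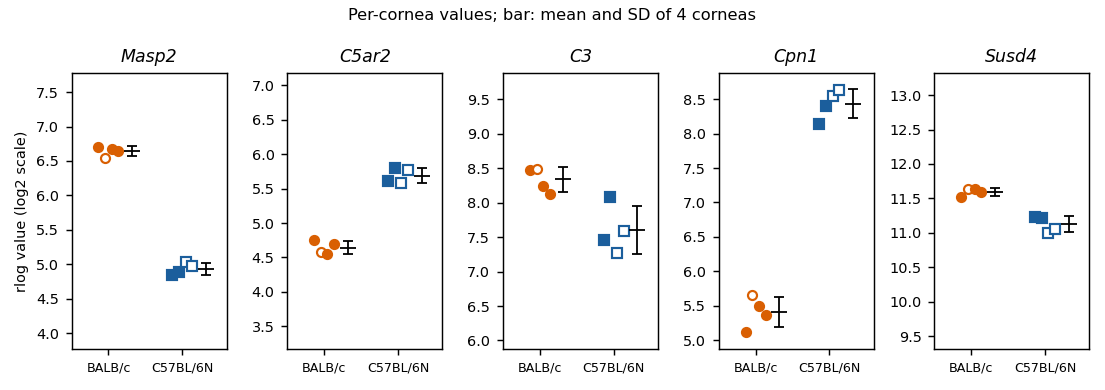
The rlog values (log2 scale, y axes of equal span) of Masp2, C5ar2, C3, Cpn1 and Susd4 in each cornea (circles BALB/c, squares C57BL/6N, open symbols the 3 corneas lowest in keratocyte markers), with the mean and SD of 4 corneas. The strains do not overlap in any of these genes, and the gap is narrowest in C3, where C57BL/6N replicate 2 (8.08) lies near the lowest BALB/c cornea (8.13).

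The remaining receptors were not called. C3ar1 ranged from 4.32 to 5.18 and Cr2 from 4.47 to 5.45, and in both the 3 lowest values were those of the low-keratocyte, low-macrophage corneas. Itgax, the alpha chain of complement receptor 4, was 0.21 higher in BALB/c (95% interval 0.04 to 0.38, limma adjusted p = 0.12). Itgam, the alpha chain of complement receptor 3, stood at 10.24 to 10.89, far above its partner chain Itgb2 (3.34 to 3.82). The readthrough gene Gm49368 overlaps 68.7% of the Itgam exon bases on the same strand, and was listed at 2.96 to 3.23. Itgam did not move with the macrophage markers, being highest in C57BL/6N replicates 3 and 4, where those markers were lowest. Vsig4 was listed at 0 in all corneas.

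Among the components of the convertases, C3 differed most clearly. C3, the central protein of all 3 pathways (chr17:57203970-57228136, minus strand), had values of 8.48, 8.49, 8.25 and 8.13 in BALB/c and of 7.46, 8.08, 7.27 and 7.59 in C57BL/6N. The groups did not overlap, yet the gap from the lowest BALB/c cornea to C57BL/6N replicate 2 was small. The difference was 0.74 ± 0.17 (SE; 95% interval 0.37 to 1.11), with a limma adjusted p of 0.0191 that did not pass 0.01 and an exact permutation p of 0.0286. Without C57BL/6N replicate 2 the difference was 0.90 and passed (limma adjusted p = 0.00246), and without the low-keratocyte corneas it was 0.51 (limma adjusted p = 0.18).

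C4b, which codes for the C4 protein, was the most variable member within a strain. It had 8.25, 5.89, 6.02 and 9.10 in BALB/c and 7.27, 8.31, 7.26 and 6.08 in C57BL/6N. The BALB/c corneas fell into a high pair, replicates 1 and 4, and a low pair, and the high pair is the one with lens and pigment transcripts. The strains overlapped (difference 0.09, 95% interval -1.57 to 1.75). Without that pair the difference was -1.27 (limma adjusted p = 0.29). The part of the lens and pigment transcripts in this spread was not tested.

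C2, the protease of the classical C3 convertase, was high in the same corneas. Its values were 6.75, 5.90, 5.76 and 7.35 in BALB/c and 5.91, 5.77, 5.57 and 5.55 in C57BL/6N. The difference of 0.74 (95% interval 0.04 to 1.44, limma adjusted p = 0.19) did not pass, and it was 0.44 without BALB/c replicate 4 and 0.13 without both lens and pigment corneas. With the pigment mean as a covariate C2 differed by 0.54 and again did not pass (limma adjusted p = 0.0334). The readthrough gene Gm20547 covers 42.8% of its exon bases and was listed at 0. C4a, which shares 16.5% of its 100-base windows with C4b and may exchange reads with it, stayed between 5.74 and 6.41.

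**Figure D3:**
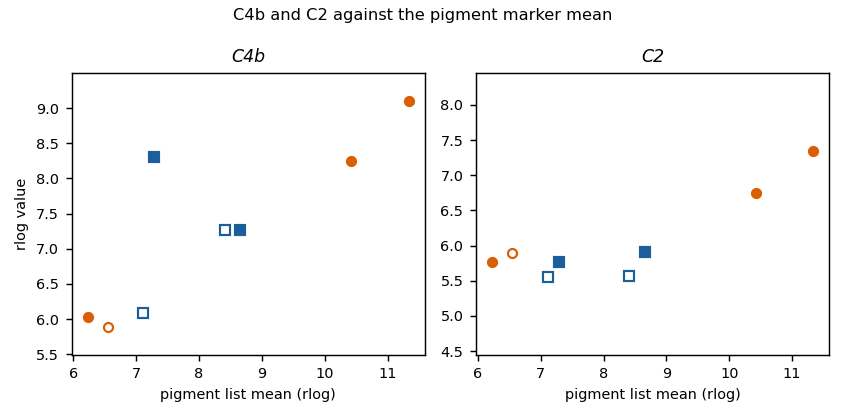
The rlog values of C4b and C2 (y axes) in each cornea against the mean rlog value of 5 pigment cell markers (x axes); circles are BALB/c, squares C57BL/6N, open symbols the 3 corneas lowest in keratocyte markers. The 2 BALB/c corneas at 10.42 and 11.34 hold the 2 highest C2 values, and C57BL/6N replicate 2 is high in C4b at a pigment mean of 7.28.

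Of the 7 initiators of the classical pathway, 6, all but C1rb, had their lowest values in the 3 corneas low in keratocyte markers. None of the initiators was called between the strains. C1s1, the C1s protease, had 10.71, 9.16, 10.53 and 10.57 in BALB/c and 10.69, 10.68, 8.10 and 8.003 in C57BL/6N. C1ra, the C1r protease, had 9.43, 8.18, 9.25 and 9.35, and 9.71, 9.64, 7.52 and 7.82. In both genes the 3 corneas low in keratocyte markers were the 3 lowest, while the remaining corneas of both strains lay between 10.53 and 10.71 for C1s1 and between 9.25 and 9.71 for C1ra.

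C1qa, C1qb and C1qc code for the chains of C1q, which macrophages make. Their values ran from 5.90 to 6.90, from 5.67 to 7.13 and from 5.50 to 6.82, and again the 3 lowest corneas were those low in keratocyte and macrophage markers. Differences between the strains were 0.17 to 0.31 for the C1q chains, 0.38 for C1ra and 0.88 for C1s1, with a 95% interval of -0.64 to 2.39 for the last. The copies C1rb (0.10 to 0.21) and C1s2 (1.33 to 1.47) were barely expressed, and since C1ra shares 36.0% of its windows with other genes, mainly C1rb, the assignment of reads between the copies is uncertain. The values of C1rb did not overlap between strains, but by 0.04 in the means, with 2 C57BL/6N corneas at the level of BALB/c to 2 decimals.

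Counted over the list, 13 of 30 tested members had their 3 lowest values in exactly these 3 corneas, compared with 9.47% of all tested genes (2405 of 25402). They were 6 of the 7 classical initiators, Masp1, C3ar1, C5ar1, Cr2, Cd59a, Cd59b and Serping1. The same held for 11 of 14 macrophage and 4 of 5 corneal endothelium markers. It also held for 8 of 9 keratocyte markers, but these 3 corneas were picked by the mean of those markers. Which of these cell types the members follow therefore cannot be told apart in 8 corneas. With the keratocyte mean as a covariate the difference of C1s1 was 0.34, of Serping1 0.12 and of C1ra -0.04, compared with 0.88, 0.69 and 0.38 without it. Masp2 (1.72) and C5ar2 (-1.06) hardly moved.

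**Figure D4:**
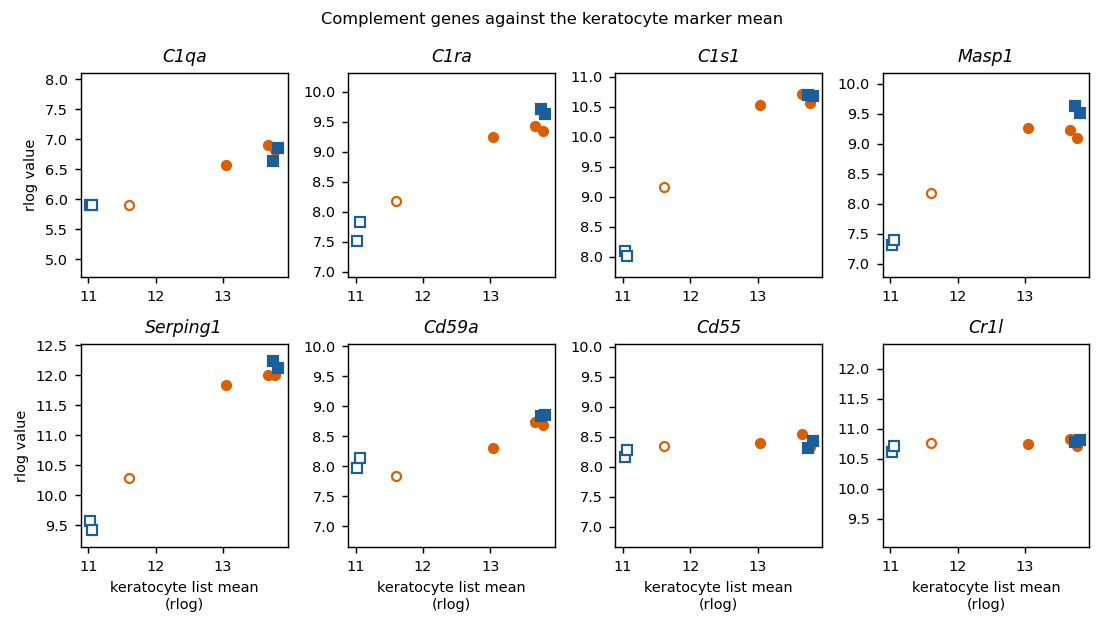
The rlog values of 8 complement genes (y axes of equal span) in each cornea against the mean rlog value of 9 keratocyte markers (x axes); circles are BALB/c, squares C57BL/6N, open symbols the 3 corneas lowest in these markers. C1qa, C1ra, C1s1, Masp1, Serping1 and Cd59a are lowest in the 3 open symbols, whereas Cd55 and Cr1l keep nearly one level.

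No membrane regulator was called. Cr1l, Cd55 and Cd46 varied little between corneas, whereas Cd59a and Cd59b were lowest in the 3 corneas low in keratocyte markers. Cr1l, the rodent regulator Crry that dismantles C3 convertases, stayed between 10.62 and 10.83 in all corneas (difference 0.03, 95% interval -0.10 to 0.16). Cd55, which speeds the decay of convertases, had 8.55, 8.35, 8.40 and 8.34 in BALB/c and 8.32, 8.43, 8.16 and 8.28 in C57BL/6N (difference 0.11, 95% interval -0.07 to 0.30). Cd46, a cofactor for cleavage of C3b and C4b, stood at 7.26 to 7.59. The strains overlapped in each of these 3 genes.

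Cd59a, which blocks the pore, had 8.73, 7.83, 8.30 and 8.68 in BALB/c and 8.83, 8.85, 7.97 and 8.13 in C57BL/6N. Its lowest values were those of the corneas low in keratocyte markers (strain difference -0.06, 95% interval -0.63 to 0.51). With the macrophage mean as a covariate the difference was -0.39 and passed (limma adjusted p = 0.00949). The copy Cd59b was weaker, at 4.62 to 5.37, and Cd55b stayed between -1.004 and -0.97 in all corneas.

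Of the soluble regulators, Clu and Serping1 had the highest levels of all tested members per length of exon (rlog value less log2 of exon length in kb, 11.71 and 9.96). Clusterin, which keeps the pore from inserting, had 13.47, 13.30, 13.33 and 13.66 in BALB/c and 13.52, 13.61, 13.52 and 13.52 in C57BL/6N. The strains overlapped, and within BALB/c the lens and pigment corneas were the higher ones (difference -0.11, and -0.23 without these corneas, limma adjusted p = 0.45 and 0.066). Serping1, the inhibitor of C1r, C1s and the MASPs, had 12.01, 10.28, 11.83 and 11.99 in BALB/c and 12.23, 12.13, 9.56 and 9.42 in C57BL/6N. The inhibitor was thus low in the same corneas as the C1 proteases it blocks, and its difference of 0.69 had a 95% interval of -0.89 to 2.27.

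Vtn and C4bp, whose products hold back the pore and the C4b convertase, were weak. Vtn stood at 3.202 to 3.72 except in C57BL/6N replicate 2 (4.79), and C4bp at 1.83 to 2.17. After Clu and Serping1 the order of levels per exon length was Itgam (8.22), C1s1 (8.16), Cd59a (7.56), Cr1l (7.38) and C1ra (7.29). Exon length here was that of all annotated exons joined, for Cr1l 10349 bases against 3859 in its longest transcript. The order thus depends in part on the annotation. Since Gm49368 overlaps 68.7% of the Itgam exon bases on the same strand, reads of Itgam may have been left uncounted. From Itgam to C1ra, neighbors in that order differed by less than the SD within a strain of at least 1 gene of the pair. Masp2 (4.06) and C5ar2 (3.33) came 19th and 21st of the 30.

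Of the 7 members of the alternative and terminal pathways, Cfp and C7 were tested, and neither was called. Cfp, properdin, which stabilizes the alternative convertase, was at 6.9985 to 7.26 in all corneas (difference -0.10, 95% interval -0.29 to 0.09). Cfb, factor B, was listed between -2.10 and -2.09, at the lower end of all values in the table, but 79.5% of its exon bases are shared on the same strand with the readthrough gene Gm20547, so reads of Cfb may have been left uncounted. Cfd, factor D, was listed at 0 in every cornea.

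Of the pore components, Hc, which codes for C5, was at -0.92 in 7 corneas and at -0.84 in BALB/c replicate 1. C6 was at -0.35 in 7 corneas and at -0.22 in BALB/c replicate 4, and C9 was listed at 0 in all 8. C7 was at 2.74 to 3.13 (difference 0.03, 95% interval -0.21 to 0.27), and of the C8 chains, which belong to the further list described last, C8g was at 3.33 to 3.63 and C8a at 2.09 to 2.35. Cfi, factor I, which cuts C3b and C4b, was at -0.52 in 7 corneas and at -0.41 in C57BL/6N replicate 2. The 8 members outside the test were thus Cfb, Cfd, Hc, C6, C9, Vsig4, Cd55b and Cfi, 3 of these at 0 throughout and 5 below 0 in the mean. At an unknown depth these values do not show that the transcripts were absent.

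**Figure D5:**
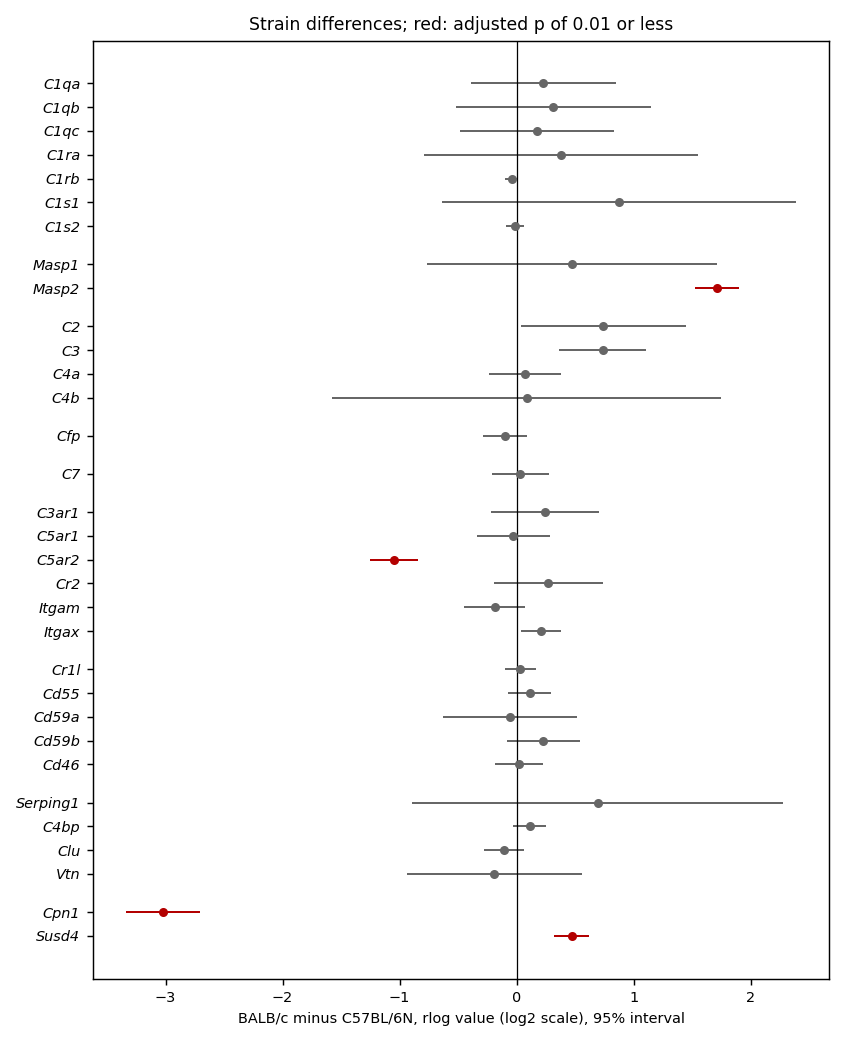
The strain difference (BALB/c minus C57BL/6N, rlog value on the log2 scale, x axis) of the 30 tested complement members and of Cpn1 and Susd4 (rows), with bars for the 95% interval of the limma fit and red for an adjusted p of 0.01 or less. Masp2 (1.71) and Susd4 (0.47) lie to the right, C5ar2 (-1.05) and Cpn1 (-3.02) to the left, and the widest bars belong to C4b, Serping1 and C1s1.

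A further list of 23 genes of the pathway extended the account to lectins, the C8 chains, pentraxins and other regulators. Of these, 14 were tested and 2 were called, Susd4 higher and Cpn1 lower in BALB/c, beside 5.74% of all tested genes. Both calls were lost under the empirical null (recalibrated limma adjusted p = 0.20 for Cpn1 and 0.53 for Susd4). Cpn1, the catalytic chain of carboxypeptidase N, which inactivates C3a and C5a by removing their last arginine, had 5.12, 5.66, 5.49 and 5.37 in BALB/c and 8.15, 8.41, 8.55 and 8.63 in C57BL/6N (chr19:43956307-43986556, minus strand). The strains lay about 3 units apart with no overlap. The level in BALB/c fell by 3.02 ± 0.14 on the log2 scale (SE; limma adjusted p = 1.242e-06; exact permutation p = 0.0286), an 8.12-fold difference (95% interval 6.53 to 10.1). Cpn2, the regulatory chain, was listed at 0 in all corneas. None of the 6 nearest tested neighbors of Cpn1 was called, and the closest to the threshold, Dnmbp, differed by -0.33 (limma adjusted p = 0.0101).

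Susd4, a membrane protein with sushi domains that restrains complement activation, had 11.52, 11.63, 11.64 and 11.60 in BALB/c and 11.23, 11.22, 10.998 and 11.06 in C57BL/6N (chr1:182763860-182896591, plus strand). The groups did not overlap, and the difference was 0.47 ± 0.07 (SE; limma adjusted p = 0.00144), a 1.39-fold higher level in BALB/c. Besides the empirical null, it no longer passed without the lens and pigment corneas (0.51, limma adjusted p = 0.0217), without the low-keratocyte corneas (0.36, limma adjusted p = 0.0117), under median centring (0.40, limma adjusted p = 0.0225) or with the replicate block (0.47, limma adjusted p = 0.0204). Its neighbor Tlr5 was called in the other direction (-0.75). The remaining tested genes of the further list were not called, and 6 of the 23, Mbl1, Mbl2, Fcnb, C8b, Cpn2 and Apcs, were listed at 0 in all corneas.

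Over the members, 4 of 30 had strain groups that did not overlap (Masp2, C5ar2, C3 and C1rb), compared with 18.3% of all tested genes. Of these, Masp2 and C3 were higher in BALB/c, and C5ar2 and C1rb lower.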

How the data were processed

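Total RNA of naive corneas had been sequenced as strand-specific libraries in paired reads of 100 bases. Per the study's methods and the labels, reads were aligned with TopHat2 2.1.1 to pseudo-genomes of each strain built on GRCm38, counted per Ensembl 94 gene with HTSeq 0.7.1 (the strand setting is not given in the sources used here), and transformed with DESeq2 1.30. The authors deposited rlog values, on a log2 scale; raw counts were not used here, and depth is unknown. All 8 columns were mapped by their labels (0 left unused).

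Strains were compared with limma 3.58.1 (lmFit, eBayes with trend; R 4.3.3) over genes with a mean of at least 0, and single values with an exact two-sided permutation test. Exon lengths, overlaps and shared 100-base windows came from GENCODE M21, and promoters from RefSeq. The fit was tested on simulated data. Members and lists were chosen with earlier results of these data known. Genes with values per cornea are the called members, a stated set (C3, C4b, Hc, Cfb, Cfd, Cfi, Cd55, Cd59a, Clu, Serping1), members near 0 and called genes of the further list; others were given in addition, chosen after their values were seen. Alternatives covered variance trend, robust fit, filters, scaling, an empirical null, the replicate block, each cornea left out, an adjusted p of 0.05 and marker covariates; leaving out corneas by lens, pigment or keratocyte markers and the pigment covariate were chosen after seeing the data.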

Additional observations from a re-analysis of the deposited data

Results flagged for a closer look

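In 64 groups of 4 corneas (30 members, Cpn1 and Susd4 in each strain), 8 held a cornea whose gap to its nearest neighbor exceeded Dixon's 95% critical value as a share of the group's range, where chance alone would give about 3.2. C1ra, C1s1, Masp1 and Serping1 shared 1 cornea, BALB/c replicate 2, which was low in keratocyte markers: C1ra stood at 8.18 there (next value 9.25), C1s1 at 9.16 (10.53), Masp1 at 8.18 (9.10) and Serping1 at 10.28 (11.83). C4bp was high in the same cornea, at 2.17 (1.91). Cfp was high in BALB/c replicate 4, at 7.26 (7.03). In C57BL/6N replicate 2, Vtn was high at 4.79 (3.28) and Clu at 13.61 (13.52), the latter in a group whose whole range was 0.09.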

How the results depend on the processing

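Masp2 and C5ar2 were called under every alternative run except the empirical null, which widened the null distribution to an SD of 1.68 and called 0 complement members, 0 further genes and 0 of all genes with limma (2, 2 and 1690 at an unadjusted p under 0.05); under it the adjusted p was 0.21 for Masp2, 0.31 for C5ar2, 0.20 for Cpn1 and 0.53 for Susd4, the effects staying as reported. Across all alternatives the difference of Masp2 ran from 1.64 to 1.81 and that of C5ar2 from -1.13 to -1.01. Replicate numbers did not pair the corneas (correlations of deviations 0.31, -0.53, -0.20 and -0.45); with the replicate block 2 complement members, 1 further gene and 554 genes in all were called. Further genes called fell to 1 also under median centring, without the lens and pigment corneas and without the low-keratocyte corneas, where Susd4 was lost. All genes called numbered 958 under median centring, 2418 with the keratocyte covariate, 447 without the lens and pigment corneas, 852 without the low-keratocyte corneas and 2842 at an adjusted p of 0.05. Leaving out each cornea in turn gave 2 to 3 complement members, 2 further genes and 953 to 1163 genes in all. C3 was called at an adjusted p of 0.05 and without C57BL/6N replicate 2, Cd59a with the macrophage covariate, and Colec12 with the keratocyte covariate. The cause of these changes was not tested. Of 700 differences recomputed for 32 genes, 636 kept direction and call and 53, in 17 genes that had not been called, changed sign.

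The sign changes were as follows. Median centring gave C4a -0.00091, C7 -0.041, Cr1l -0.043 and Cd46 -0.051, and quantile normalization gave C4a -0.0080 and Cd46 -0.058. The keratocyte covariate gave C1qc -0.030, C1ra -0.037 and C4b -0.32. The macrophage covariate gave C1qa -0.13, C1qb -0.17, C1qc -0.18, C1ra -0.29, Masp1 -0.21, C4b -0.66, C3ar1 -0.0020, Cr1l -0.0021 and Serping1 -0.23. The pigment covariate gave C4b -0.35 and C7 -0.022. Without the lens and pigment corneas, C1qa was -0.0885, C1qb -0.050, C1qc -0.26, C4b -1.27 and C7 -0.11. Without the low-keratocyte corneas, C1qb was -0.057, C1ra -0.33, C1s1 -0.081, Masp1 -0.38, Cr1l -0.036 and Serping1 -0.24. Leaving out single corneas gave ranges of -0.032 to 0.38 for C1qc, -0.51 to 0.56 for C4b, -0.031 to 0.0165 for C1s2, -0.031 to 0.19 for C4a, -0.11 to 0.053 for C5ar1, -0.22 to 0.12 for Cd59a, -0.028 to 0.12 for C7, -0.012 to 0.10 for Cd46, -0.33 to 0.20 for Vtn, -0.0054 to 0.73 for C1ra and -0.0085 to 0.058 for Cr1l. Depth is unknown, and rlog values understate differences of weak genes.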
